A study of Mus musculus with 24 samples.

Results

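The livers of mice homozygous for a deletion of tRNA-Phe-1-1 were compared with the livers of wild-type (WT) mice, using RNA sequencing of total liver RNA. The comparison was taken from the sample titles and holds 6 of the 24 samples of the series, 3 tRNA-Phe-1-1-/- livers and 3 WT livers, each lettered A to C. All were from male mice of the C57BL/6N strain, kept on normal chow under a 12 h light and dark cycle. The study's methods call the WT mice age- and littermate-matched, and also state that the mice used came from different litters. Which litter each liver came from is not given in the sources used here. The mice were 10 weeks old, and the time of day at which tissue was taken is not given in the sources used here. The tRNA-Phe-1-1-/- mice descend from embryos edited with CRISPR/Cas9 and carry the deletion in every tissue, so the change in liver cannot be told apart from a response to the loss elsewhere in the body. Livers of 2 further lines were in the same table, those homozygous for loss of tRNA-Phe-2-1 (tRNA-Phe-2-1-/-) or of tRNA-Phe-3-1 (tRNA-Phe-3-1-/-), with 3 male mice each. They served to show where the tRNA-Phe-1-1-/- livers differed from other tRNA-Phe knockouts. Values are normalised read counts, which are estimated reads per gene divided by a size factor for each sample.

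Phenylalanine is carried to the ribosome by tRNAs with the anticodon GAA, which read both phenylalanine codons. The mouse genome holds several genes for this tRNA, and those of the tRNA-Phe-1 family encode the same mature sequence, so that the other genes still supply the tRNA when a single gene is lost. Cells that run short of a charged tRNA can stall ribosomes and activate the integrated stress response through Atf4, while badly folded proteins activate the heat shock genes in the cytosol and the unfolded protein response in the endoplasmic reticulum (ER). The liver also answers cytokines and glucocorticoids with acute phase genes, and many of its metabolic genes follow the circadian clock.

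The deletion is shown here because it defines the line. The guide, with its PAM in capitals, and the reference sequence at the deleted site, with the only base that the knockout allele keeps in capitals, were as follows.
guide: gcgttagactgaagatctaaAGG
deleted site: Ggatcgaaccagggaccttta
The allele therefore lacks 20 bases of the tRNA gene. The guide with its PAM matched the GRCm39 genome exactly at 7 places, 1 of them on chromosome 5, where tRNA-Phe-1-1 lies. RefSeq lists 7 tRNA-Phe genes of 73 bases each, and the single gene on chromosome 5 is n-TFgaa7 at chr5:125406055-125406127 (GRCm38.p6). The table of genes held 0 tRNA-Phe genes, so the loss of the tRNA itself could not be checked in these libraries. Of 14 annotated genes within 150 kb of the deleted gene, 5 had enough reads to be tested. Dhx37, a helicase gene 7620 bases away, had 588, 446 and 441 normalised counts in WT livers A to C and 615, 528 and 605 in tRNA-Phe-1-1-/- livers A to C, and the groups overlapped (log2 fold change 0.25, adjusted p = 0.426). Only Bri3bp among the 5 passed the test, with 1353, 1387 and 1311 counts in WT and 1059, 805 and 1156 in tRNA-Phe-1-1-/- livers (log2 fold change -0.44 ± 0.14 SE, limma, adjusted p = 0.0467). Its call was lost when a single library was left out, for WT A, WT B, WT C, tRNA-Phe-1-1-/- A or tRNA-Phe-1-1-/- B, with an adjusted p of up to 0.131.

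The 6 libraries held 32276896 reads (WT C) to 45204856 reads (tRNA-Phe-1-1-/- B). Genes were tested where the 12 livers averaged 10 or more normalised counts. Of these 15856 genes 2751 passed an adjusted p of 0.05, which is 17.3% of those tested, with 1311 higher (8.27%) and 1440 lower (9.08%) in tRNA-Phe-1-1-/- livers. Without WT C the total was 1472, without WT B 1789 and without tRNA-Phe-1-1-/- A 1610. The 3 tRNA-Phe-1-1-/- livers lay apart from the other 9 livers on the first principal component, at 44.3 to 67.6 against -27.5 to -13.0. On the second component WT B, WT C and tRNA-Phe-1-1-/- B lay together at -41.2 to -37.1, with tRNA-Phe-3-1-/- A at -31.5, whereas the other 8 livers lay at 6.67 to 25.2. tRNA-Phe-1-1-/- B therefore stood apart from the A and C livers of its own genotype, and its values are given wherever it set the range of a result. In the comparison with the other 2 knockout lines, 3490 genes passed the test, which is 22% of those tested, with 1637 higher and 1853 lower. In bulk tissue, fewer cells of a type and less RNA per cell cannot be told apart.

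**Figure D1:**
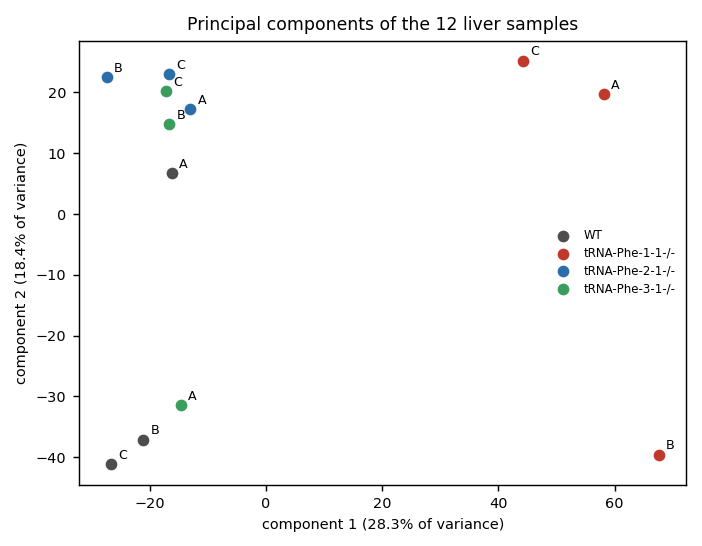
Principal components of log2(normalised read count + 1) in the 12 livers, with component 1 (28.3% of the variance) on the x axis and component 2 (18.4%) on the y axis; letters mark replicates and colours the genotypes. The 3 tRNA-Phe-1-1-/- livers lie to the right of the other 9 on component 1, and tRNA-Phe-1-1-/- B lies with WT B and WT C on component 2.

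Among 42 gene lists, those with the highest shares of members called higher were the acute phase genes (25 of 30), cytosolic heat shock genes (14 of 19), clock genes in phase with Dbp (8 of 12) and ER chaperones (16 of 28). The lists with the highest shares called lower were the clock genes in phase with Bmal1 (5 of 6), fatty acid synthesis (12 of 21), Nrf2 antioxidant targets (10 of 26), female-biased liver genes (6 of 16) and phenylalanine and tyrosine breakdown (3 of 8). Over all genes tested the shares were 8.27% higher and 9.08% lower, and the median log2 fold change was -0.0051.

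**Figure D2:**
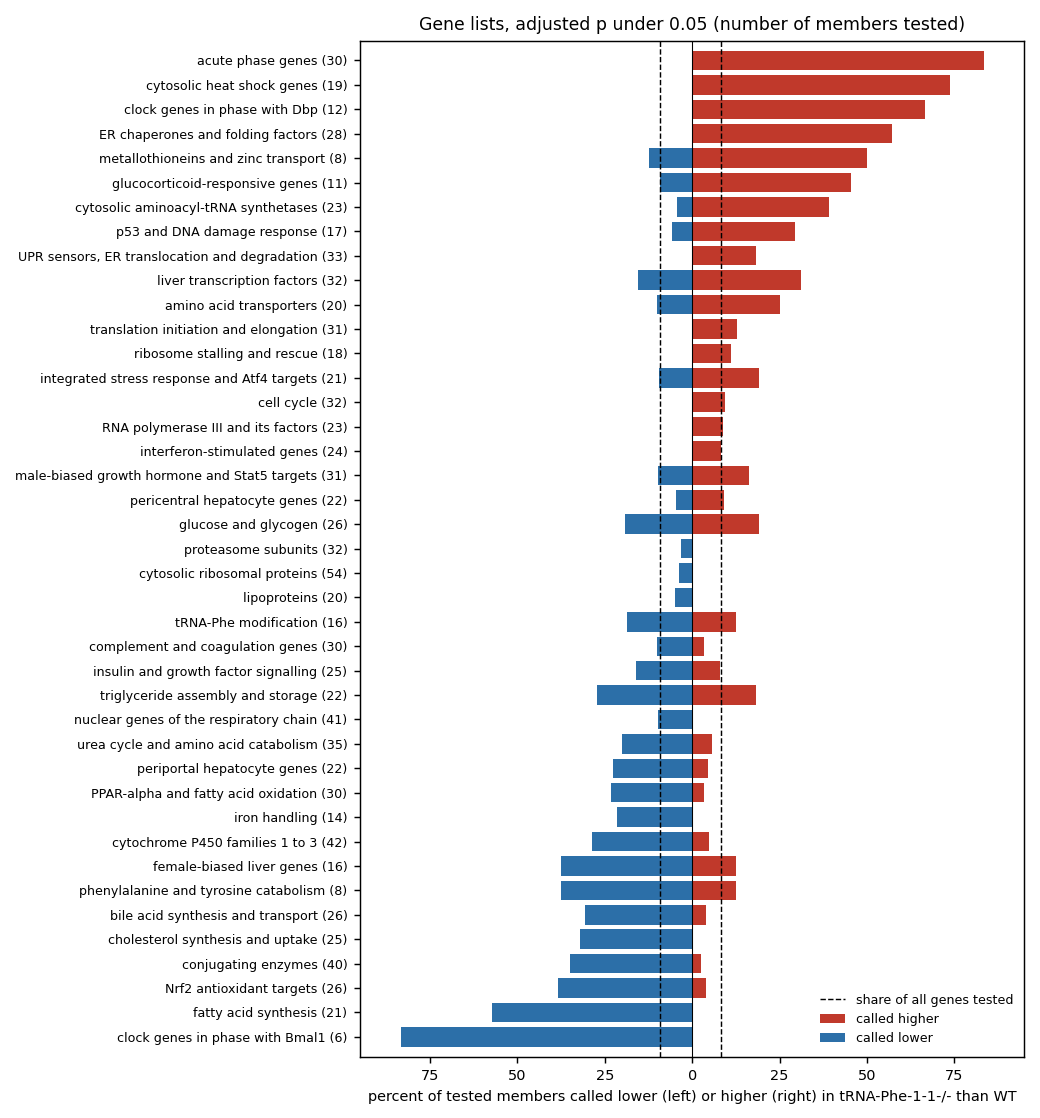
For the 41 gene lists with at least 6 tested members, the percent of tested members that were called higher (right, red) or lower (left, blue) in tRNA-Phe-1-1-/- than in WT livers, with the number tested in brackets; dashed lines mark the shares over all genes tested (8.27% higher, 9.08% lower). Acute phase, heat shock, Dbp-phase clock and ER chaperone genes extend farthest to the right, and Bmal1-phase clock and fatty acid synthesis genes farthest to the left.

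Genes of the circadian clock changed in opposite directions according to their phase. The clock is a loop in which Bmal1 with Clock or Npas2 activates the Per and Cry genes and the output genes Dbp and Tef through E-boxes (CACGTG), and the Per and Cry proteins then inhibit Bmal1. The promoters of Ciart and Per1, whose products repress this loop, are printed because both genes rose and both windows hold the element through which Bmal1 acts. Capitals mark E-boxes and, in Per1 only, also a D-box (TTATG and AA, 1 base apart), the element bound by Dbp and Tef.
Ciart, chr3:95882179-95882478, minus strand: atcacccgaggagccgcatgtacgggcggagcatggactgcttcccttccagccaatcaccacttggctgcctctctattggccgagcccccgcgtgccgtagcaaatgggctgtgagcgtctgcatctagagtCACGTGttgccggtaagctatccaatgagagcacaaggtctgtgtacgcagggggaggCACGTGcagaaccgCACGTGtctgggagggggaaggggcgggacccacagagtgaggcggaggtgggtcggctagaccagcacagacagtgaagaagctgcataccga
Per1, chr11:69098699-69098998, plus strand: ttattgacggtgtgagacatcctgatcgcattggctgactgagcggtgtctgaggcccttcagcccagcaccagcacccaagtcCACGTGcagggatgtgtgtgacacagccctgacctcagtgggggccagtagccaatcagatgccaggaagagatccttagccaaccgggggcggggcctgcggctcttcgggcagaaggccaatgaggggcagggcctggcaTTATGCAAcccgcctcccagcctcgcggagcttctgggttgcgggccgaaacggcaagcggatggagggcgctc
Both windows run from 250 bases before to 50 bases after an annotated start (RefSeq, GRCm38.p6). Searched on both strands, an E-box was present in 5 of the 12 windows of the Dbp-phase list (4 of 10 genes with a window) and in 7.15% of all 32851 windows, and a D-box in 2 of the 12 windows and 3.38% of all windows. In the Bmal1-phase list an E-box was present in 1 of 6 windows, that of Cry1, and a D-box in 0 of 6.

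Ciart (ENSMUSG00000038550.10) had 9.77, 2.97 and 6.49 normalised counts in WT livers A to C and 508, 105 and 504 in tRNA-Phe-1-1-/- livers. Every tRNA-Phe-1-1-/- liver was thus far above every WT liver, with tRNA-Phe-1-1-/- B the lowest of its group (log2 fold change 5.46 ± 0.70, limma, adjusted p = 0.000605). Dbp, a transcription factor at the output of the clock, had 67.4, 28.7 and 67.5 counts in WT and 2776, 853 and 3069 in tRNA-Phe-1-1-/- livers (5.23 ± 0.98, adjusted p = 0.00452). Usp2, a deubiquitinase gene under clock control, followed the same order, with 19.5, 41.5 and 11.7 counts against 964, 183 and 873 (4.59 ± 0.72, adjusted p = 0.0017). Per1 differed from these in its replicates. Its counts were 85.0, 31.6 and 119 in WT and 739.6, 1047 and 1079.6 in tRNA-Phe-1-1-/- livers (3.76 ± 0.52, adjusted p = 0.000876), so that tRNA-Phe-1-1-/- B was not below the others. Per3 (log2 fold change 2.72), Per2 (2.50), Tef (1.93) and Nr1d2 (1.70), which encode repressors of the loop and an output factor, also rose. Nr1d1, the closest relative of Nr1d2, did not pass the test (0.11, adjusted p = 0.918), nor did Hlf, the relative of Dbp and Tef (0.17, adjusted p = 0.801). The number of Dbp-phase genes called stayed at 8 or 9 whichever of the 6 livers was left out, and the list median was 2.21.

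On the opposite arm, Npas2 had 321, 257 and 414 counts in WT livers and 3.76, 18.5 and 5.12 in tRNA-Phe-1-1-/- livers (log2 fold change -5.30 ± 0.74, limma, adjusted p = 0.000915). Bmal1 had 1479, 1591 and 1889 counts in WT and 98.8, 466 and 101 in tRNA-Phe-1-1-/- livers (-3.29 ± 0.59, adjusted p = 0.00374). In both genes tRNA-Phe-1-1-/- B was again the liver nearest to WT. Clock (-0.60), Nfil3 (-0.99) and Cry1 (-1.08) also fell. The Bmal1-phase count of 5 dropped to 2 without WT B, WT C or tRNA-Phe-1-1-/- A, when Clock, Nfil3 and Cry1 reached adjusted p-values of up to 0.0634, 0.0981 and 0.0936. Cry1 also lost its call without tRNA-Phe-1-1-/- B (limma, adjusted p = 0.0554) or tRNA-Phe-1-1-/- C (0.0517). Nfil3 also lost it without tRNA-Phe-1-1-/- C (0.0660). Against the other 2 knockout lines, Ciart (log2 fold change 4.54), Per1 (4.30), Usp2 (3.34) and Dbp (2.73) were higher and Npas2 (-3.05) and Bmal1 (-2.18) were lower in tRNA-Phe-1-1-/- livers, whereas the differences for Nfil3 (-0.20, adjusted p = 0.568) and Cry1 (-0.20, adjusted p = 0.625) did not pass the test. The mean of Dbp was 168 ± 187 counts in tRNA-Phe-2-1-/- and 1229 ± 1006 in tRNA-Phe-3-1-/- livers (SD, n = 3), so its level varied widely within these lines as well. As the sampling time is not known, a shift of the clock and a difference in sampling time cannot be told apart here.

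**Figure D3:**
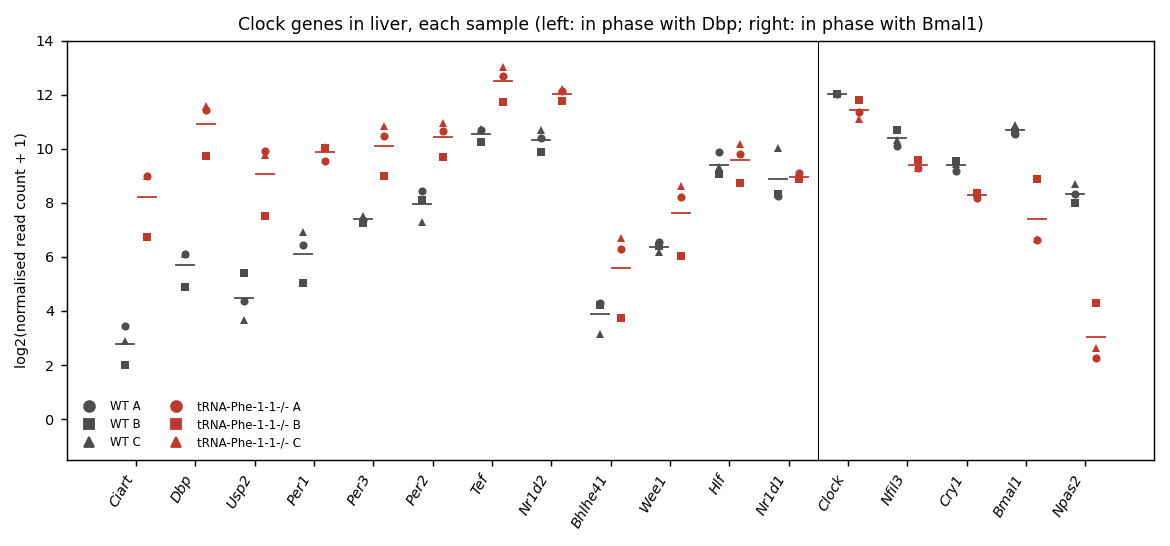
Log2(normalised read count + 1) of 17 clock genes in the 3 WT (grey) and 3 tRNA-Phe-1-1-/- (red) livers; circles, squares and triangles are replicates A, B and C, and horizontal bars are group means. Genes in phase with Dbp (left) are mostly higher and genes in phase with Bmal1 (right) lower in tRNA-Phe-1-1-/- livers, and tRNA-Phe-1-1-/- B (red square) is often the liver nearest to WT.

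Some of the genes that respond to glucocorticoids and to metals rose. Fkbp5, a co-chaperone of the glucocorticoid receptor and a common readout of its activity, had 797, 652 and 681 counts in WT and 3040.5, 3238 and 3338 in tRNA-Phe-1-1-/- livers. The 3 tRNA-Phe-1-1-/- livers were close to each other and all far above WT (log2 fold change 2.18 ± 0.21, limma, adjusted p = 0.000121). Fam107a, another target of the receptor, was at 0, 0.988 and 0 counts in WT and at 43.3, 39.7 and 20.5 in tRNA-Phe-1-1-/- livers. Errfi1 (1.53), Zbtb16 (1.28) and Tsc22d3 (1.09) were the other members that rose, so that 5 of 11 tested glucocorticoid-responsive genes were higher. By sign, 6 of the 11 had a positive and 5 a negative log2 fold change, with a median of 0.32. The gene of the receptor itself, Nr3c1, was the 1 member that was lower (-0.21, adjusted p = 0.0488, and up to 0.150 when single livers were left out). The count of 5 was 3 without WT B or tRNA-Phe-1-1-/- C and 2 without WT C, with adjusted p-values of up to 0.0588 for Errfi1, 0.0784 for Zbtb16 and 0.0936 for Tsc22d3.

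The metallothioneins Mt1 and Mt2 bind zinc and copper and are induced by metals, glucocorticoids and inflammation. Their promoters are printed because the metal response element (TGCNCNC, capitals, on either strand) recurs in both.
Mt1, chr8:94178839-94179138, plus strand: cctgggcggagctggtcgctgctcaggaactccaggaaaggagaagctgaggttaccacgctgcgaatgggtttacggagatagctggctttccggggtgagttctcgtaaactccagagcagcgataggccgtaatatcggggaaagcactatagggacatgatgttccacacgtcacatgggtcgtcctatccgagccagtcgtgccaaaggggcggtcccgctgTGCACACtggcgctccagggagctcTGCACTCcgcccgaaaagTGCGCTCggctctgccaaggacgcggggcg
Mt2, chr8:94172368-94172667, plus strand: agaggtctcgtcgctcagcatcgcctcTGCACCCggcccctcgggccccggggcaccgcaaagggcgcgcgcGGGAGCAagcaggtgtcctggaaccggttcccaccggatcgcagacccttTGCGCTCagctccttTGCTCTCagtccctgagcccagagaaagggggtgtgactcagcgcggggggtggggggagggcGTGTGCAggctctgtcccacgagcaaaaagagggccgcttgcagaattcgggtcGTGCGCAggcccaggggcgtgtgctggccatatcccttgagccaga
Mt1 had 3 matches, a number reached by 7.1% of all windows, and Mt2 had 6, reached by 0.225%, while 51% of all windows had at least 1. Mt1 had 81.1, 228 and 415 counts in WT and 6662, 22706 and 2488 in tRNA-Phe-1-1-/- livers (5.18 ± 0.74, adjusted p = 0.00104). tRNA-Phe-1-1-/- B was highest here, unlike in the clock genes, and the same held for Mt2, with 1147, 8695 and 521 counts in tRNA-Phe-1-1-/- livers. Slc39a14, which carries zinc and iron into hepatocytes, showed less spread, with 6896, 5057 and 5577 counts in WT and 17362, 19024 and 17589 in tRNA-Phe-1-1-/- livers (1.63 ± 0.16, adjusted p = 0.000121). Mtf1, the factor that binds the metal response element, rose by 0.73 on the log2 scale, and Slc30a10, a metal exporter, fell by 0.78. In all, 4 of 8 genes of metallothioneins and zinc transport were higher and 1 lower. Of the iron genes, 3 of 14 were lower and none was higher, with 1 lower without WT C or tRNA-Phe-1-1-/- A.

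Most acute phase genes were higher in tRNA-Phe-1-1-/- livers. These genes encode plasma proteins that hepatocytes release in inflammation, together with the receptors and factors that induce them. All 30 tested members had a positive log2 fold change, 25 passed the test (83.3%, against 8.27% of all genes for a rise), and the median was 1.01. In 25 members the groups did not overlap, which was the case for 34.8% of all genes. Serpina3m, a protease inhibitor, varied least, with 7475, 7873 and 7202 counts in WT and 15408, 14322 and 15779 in tRNA-Phe-1-1-/- livers (1.01 ± 0.07, adjusted p = 3.63e-05). The serum amyloid gene Saa4 had 3387, 2909 and 3127 counts in WT and 28469, 21999.6 and 16534 in tRNA-Phe-1-1-/- livers (2.80 ± 0.22). Larger and more variable were Saa1, with 1395, 316 and 642 counts against 32101, 43648 and 9799 (5.19 ± 0.62), and Lcn2, an iron-trapping protein, with 59.6, 10.9 and 33.7 against 1298, 3388 and 356 (5.31 ± 0.95, adjusted p = 0.00361). tRNA-Phe-1-1-/- B was the highest and tRNA-Phe-1-1-/- C the lowest of the tRNA-Phe-1-1-/- livers in both. Haptoglobin (Hp), which binds free haemoglobin, rose from 74549, 78443 and 61071 counts to 239542, 280777 and 161971 (1.64 ± 0.19). The metalloreductase gene Steap4 rose by 3.05 on the log2 scale. Transcription factors that drive these genes rose too, Cebpb from 764, 661 and 484 counts to 2667, 2678 and 2671 (2.09 ± 0.22) and Cebpd from 122, 86.0 and 72.6 to 414, 648 and 518 (2.49 ± 0.23). Between 17 and 23 members were called whichever of the 6 livers was left out. The summed neutrophil markers moved with this list, from 53.7 to 97.8 counts in WT to 201 to 499 in tRNA-Phe-1-1-/- livers, highest in tRNA-Phe-1-1-/- B, and their part in the result was not tested. The serum amyloid and Serpina3 genes have close copies, between which reads may be divided with error.

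Of the complement and coagulation genes, whose products hepatocytes also secrete, 1 of 30 was higher and 3 were lower, with a median of -0.036. In all 13.3% were called, against 17.3% of all genes tested. Without WT B, WT C or tRNA-Phe-1-1-/- A 1 was lower, and without tRNA-Phe-1-1-/- C 5 were lower. Interferon-stimulated genes had a median of 0.44 with 2 of 24 called, both higher (the regulators Irf7 and Stat2). That share of 8.33% was near the 8.27% of all genes tested that were higher, and 10 were called without tRNA-Phe-1-1-/- C. Irf7 and Stat2 lost their calls without WT C, tRNA-Phe-1-1-/- A or tRNA-Phe-1-1-/- B, and Stat2 also without WT B, with adjusted p-values of up to 0.0787 and 0.186.

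The cytosolic heat shock genes, which encode chaperones under control of Hsf1, rose together. All 19 had a positive log2 fold change, 14 passed the test and none fell, with a median of 0.83. The small heat shock protein gene Hspb1 led the list, with 454, 400.3 and 318 counts in WT and 2678, 2244 and 1739 in tRNA-Phe-1-1-/- livers (2.50 ± 0.20, adjusted p = 5.38e-05). Hsph1, which exchanges the nucleotide of Hsp70, rose from 1763, 1246 and 1177 counts to 4532, 3541 and 3882 (1.53 ± 0.19). Hsp90aa1 (1.08), its activator Ahsa1 (0.77) and the Hsp70-Hsp90 adaptor Stip1 (0.60) changed less but with little spread. Ahsa1 had 2762, 2359 and 2369.9 counts in WT and 4221, 4241 and 4272 in tRNA-Phe-1-1-/- livers, so that the spread within each group was small beside the difference. Against the other 2 knockout lines the log2 fold changes were 0.75 for Ahsa1 and 2.05 for Hsph1.

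**Figure D4:**
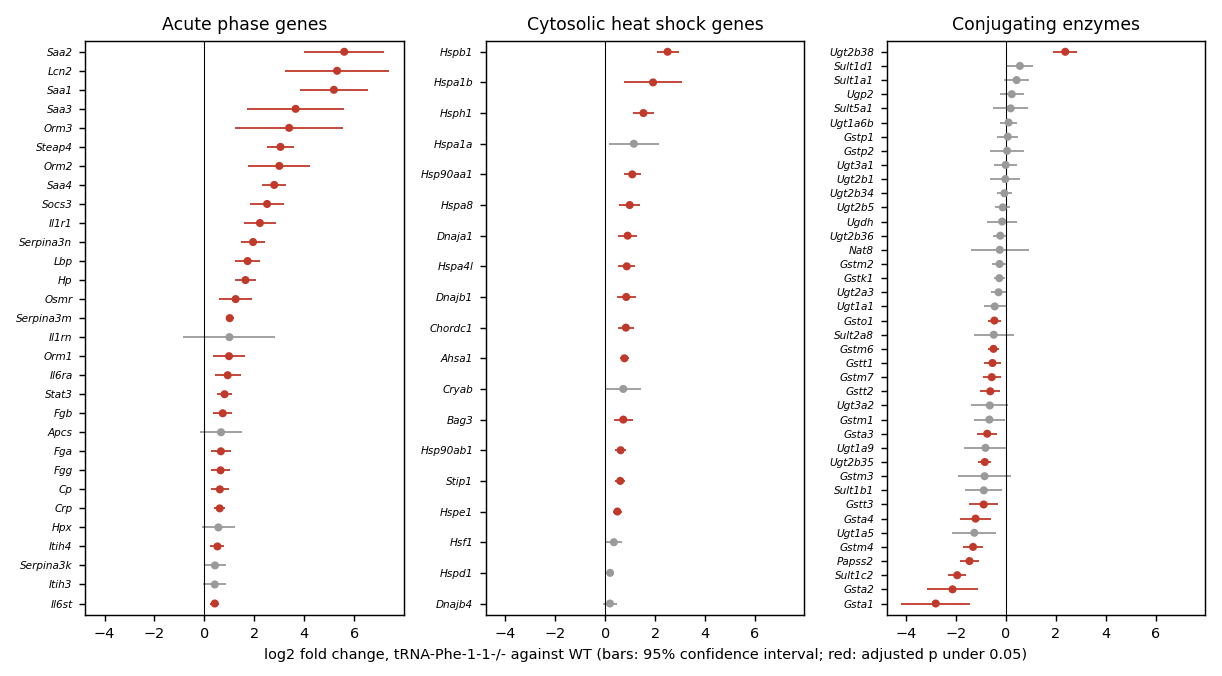
Log2 fold change of tRNA-Phe-1-1-/- against WT livers on the x axis for each tested member of 3 gene lists, with bars for the 95% confidence interval; red marks an adjusted p under 0.05. All acute phase and heat shock genes lie to the right of 0, and most conjugating enzymes lie to the left.

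ER chaperones and folding factors followed the heat shock genes, with 16 of 28 higher, none lower and a median of 0.49. Without WT B or tRNA-Phe-1-1-/- A, 10 were higher. The promoters of Creld2, an ER foldase, and Dnajc3, a co-chaperone that also restrains the eIF2α kinase of the ER, are printed because each holds an ER stress response element (CCAAT and CCACG spaced 9 bases apart, in capitals, on either strand).
Creld2, chr15:88819396-88819695, plus strand: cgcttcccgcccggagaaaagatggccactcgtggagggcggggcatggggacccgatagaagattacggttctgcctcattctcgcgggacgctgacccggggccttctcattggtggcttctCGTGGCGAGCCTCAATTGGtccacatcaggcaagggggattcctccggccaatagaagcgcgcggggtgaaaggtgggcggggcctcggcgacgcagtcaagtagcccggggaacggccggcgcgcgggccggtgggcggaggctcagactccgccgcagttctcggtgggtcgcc
Dnajc3, chr14:118937682-118937981, plus strand: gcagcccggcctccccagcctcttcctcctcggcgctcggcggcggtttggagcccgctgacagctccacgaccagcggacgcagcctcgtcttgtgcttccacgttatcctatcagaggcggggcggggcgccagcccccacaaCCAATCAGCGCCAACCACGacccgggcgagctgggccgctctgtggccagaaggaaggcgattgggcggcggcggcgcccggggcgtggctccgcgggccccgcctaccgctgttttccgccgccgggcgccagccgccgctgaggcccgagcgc
The element was present in 8 of the 31 windows of this list (8 of 24 genes with a window) and in 0.119% of all windows. Creld2 rose from 1722, 956 and 1213 counts to 7263, 4347 and 5046 (2.11 ± 0.35, adjusted p = 0.00216). Dnajc3 rose from 10380.0, 9271 and 8998 counts to 18220.2, 17482 and 17088 (0.88 ± 0.11, adjusted p = 0.000607). Of the sensors and the translocation and degradation factors of the ER, 6 of 33 rose and none fell. Derl3, a channel through which misfolded proteins leave the ER, had 16.6, 74.1 and 6.49 counts in WT and 425, 385 and 378 in tRNA-Phe-1-1-/- livers, without overlap (4.21 ± 0.65, adjusted p = 0.00164). Herpud1 (1.28), which recruits the degradation machinery, and the sensor and factor genes Atf6 (0.45) and Xbp1 (0.62) rose less. Xbp1 had 7266, 8539 and 7014 counts in WT against 11755, 12308 and 10998, and Atf6 had 3879, 3732 and 4168 against 5611, 4826 and 5669, both without overlap.

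The integrated stress response is the pathway most directly tied to uncharged tRNA. Of 21 tested Atf4 targets and regulators, 4 were higher and 2 lower (28.6%, against 17.3% of all genes tested), with a median of 0.43. Besides Cebpb, the members that rose included Sesn2, an inhibitor of growth signalling, with 211, 155 and 148 counts in WT and 253, 264 and 274 in tRNA-Phe-1-1-/- livers (0.64 ± 0.15, adjusted p = 0.0147). Cth, which makes cysteine, and the lipoprotein receptor gene Vldlr, both also Atf4 targets, fell by 0.98 and 2.57. Only 1 member was higher and none lower without WT B or WT C, when Sesn2, Cth and Vldlr reached adjusted p-values of up to 0.0646, 0.0765 and 0.0932. Leaving out tRNA-Phe-1-1-/- B gave 5 higher and 3 lower with a median of -0.17. Leaving out WT A gave a median of -0.012, so the sign of the median depended on single livers.

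The genes that charge and modify tRNA-Phe were examined next. The cytosolic phenylalanyl-tRNA synthetase genes did not pass the test. Farsa had 776, 605 and 667 counts in WT and 901, 827 and 797 in tRNA-Phe-1-1-/- livers, without overlap (log2 fold change 0.31, adjusted p = 0.118), and Farsb was at -0.06 (adjusted p = 0.716). The mitochondrial enzyme gene Fars2 was at -0.08 (adjusted p = 0.728). Of 23 cytosolic aminoacyl-tRNA synthetase genes and partners, Farsa and Farsb among them, 9 were higher and 1 lower, with a median of 0.24. Those that rose were led by Sars1 (0.40) and Wars1 (0.50), and the rises were small. The number higher was 2 without WT B or WT C, 3 without tRNA-Phe-1-1-/- A or tRNA-Phe-1-1-/- B and 5 without WT A. Tars1, the threonyl enzyme, went the other way, from 8325, 7767 and 7649 counts in WT to 4582, 4893 and 4958 (-0.72 ± 0.11, adjusted p = 0.00189).

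Of 16 genes for modification of tRNA-Phe, 2 were higher and 3 lower (31.2% called, against 17.3% of all genes tested). Without WT B 0 were higher and 2 lower, without tRNA-Phe-1-1-/- C 0 were higher and 3 lower, and without WT C or tRNA-Phe-1-1-/- A 1 was higher and 2 lower. Tyw5, the hydroxylase of the wybutosine pathway that modifies the base next to the anticodon of tRNA-Phe, had 275, 272 and 284 counts in WT and 147, 141 and 105 in tRNA-Phe-1-1-/- livers. The groups did not overlap (-1.09 ± 0.17, adjusted p = 0.00146), and the log2 fold change against the other 2 knockout lines was -1.16 ± 0.14. Wdr6, a partner of the enzyme that methylates the anticodon loop, fell from 774, 666 and 745 counts to 478, 577 and 469 (-0.52 ± 0.11, adjusted p = 0.00823). Trmt9b (ENSMUSG00000039620.17), a relative of tRNA methyltransferases, is not on the list but was among the 10 genes with the lowest p, with 353, 226 and 292 counts in WT and 48.9, 54.7 and 60.4 in tRNA-Phe-1-1-/- livers (-2.37 ± 0.19, adjusted p = 5.38e-05).

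Of the RNA polymerase III genes, which transcribe tRNAs, 2 of 23 were higher (8.7%), Crcp (0.76, adjusted p = 0.00488) and Polr3d (0.69, adjusted p = 0.023). Of the genes for stalled ribosomes, 2 of 18 were higher (11.1%), Pelo (0.76, adjusted p = 0.0201) and Abce1 (0.28), which split ribosomes that have stopped. Over all genes tested 8.27% were higher, so both lists were near the share of all genes. Polr3d, Pelo and Abce1 reached adjusted p-values of up to 0.0912, 0.0835 and 0.124 when a single liver was left out (WT B, WT C or tRNA-Phe-1-1-/- A for all 3, and also tRNA-Phe-1-1-/- B for Polr3d and tRNA-Phe-1-1-/- B or tRNA-Phe-1-1-/- C for Abce1). Of 31 translation factors 4 were higher (12.9%, against 8.27% of all genes tested), led by the release factor gene Etf1 (0.39). Without WT B, WT C or tRNA-Phe-1-1-/- A, 1 or 2 of the translation factors were higher. Cytosolic ribosomal protein genes showed no rise, with 2 of 54 lower, none higher and a median of -0.056. Against the other 2 knockout lines, 4 of the 54 were lower, as were 23 of 41 nuclear genes of the respiratory chain (median -0.25). Over all 15856 genes tested, 1853 were lower in that comparison. Against WT, 4 of these 41 respiratory chain genes were lower (9.76%, against 9.08% of all genes tested, median -0.17). That count of 4 against WT was 1 without WT B or WT C, 2 without tRNA-Phe-1-1-/- A and 9 without tRNA-Phe-1-1-/- C.

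Genes of phenylalanine use were examined because phenylalanine is the amino acid of the deleted tRNA. Qdpr, which regenerates the cofactor tetrahydrobiopterin, fell from 11961, 12546 and 14339 counts to 6742, 8320.4 and 8262 (-0.74 ± 0.11, adjusted p = 0.00163). Of the 8 genes of phenylalanine and tyrosine breakdown 1 was higher and 3 were lower, and without WT B, WT C or tRNA-Phe-1-1-/- A 1 was called in each direction. Slc16a10, a transporter of aromatic amino acids, rose from 2956, 2344 and 2633 counts to 6655, 5657 and 4554 (1.08 ± 0.15, adjusted p = 0.000799). Slc38a2, which carries neutral amino acids, rose from 4062, 3623 and 3510.1 counts to 6790.5, 13193 and 6658 (adjusted p = 0.00552), highest in tRNA-Phe-1-1-/- B. In all, 5 of 20 amino acid transporters were higher and 2 lower, with 3 higher without tRNA-Phe-1-1-/- B. Of 35 genes of the urea cycle and amino acid catabolism 2 were higher and 7 lower, the largest fall being that of Hal, the first enzyme of histidine breakdown, from 14636, 26484 and 26448 counts to 6129, 12083 and 7858 (-1.38 ± 0.30). The 7 dropped to 2 without WT B or WT C and to 3 without tRNA-Phe-1-1-/- A.

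The phenylalanine content of the encoded proteins was read from the reference for 13038 of 13128 protein-coding genes tested (99.3%). The median content was 3.63% of residues for 1233 genes that were higher, 3.77% for 1195 that were lower and 3.58% for 10610 that were not called. Of the 1305 genes with the highest content (at least 5.81%), 124 were higher (9.50%) and 152 lower (11.6%), with a median log2 fold change of -0.01. Over all 13038 genes with a known content these shares were 9.46% and 9.17%.

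Of the genes of lipid metabolism, more members were lower than higher against WT in each of the lists tested. Of 25 cholesterol genes 8 were lower and none higher against WT (median -0.30). Against the other 2 knockout lines 4 were lower and 4 higher (median 0.14), beside 1853 lower and 1637 higher of all 15856 genes tested. Sc5d, which acts late in cholesterol synthesis, had 28863, 29739 and 33262 counts in WT and 12281, 11154 and 13690.5 in tRNA-Phe-1-1-/- livers (-1.31 ± 0.11, adjusted p = 5.87e-05). Pmvk, an early enzyme of the mevalonate pathway, fell from 3036, 2892 and 3239 counts to 814, 984 and 1094 (-1.67 ± 0.15). For fatty acid synthesis, where 12 of 21 genes fell (median -0.96), the comparison with the other 2 knockout lines gave 3 lower and 1 higher (median -0.11). Of 30 PPARα targets and oxidation genes 7 were lower and 1, the carnitine transferase gene Cpt1a (0.54), was higher. Pdk4, which blocks the entry of pyruvate into oxidation, had 816, 699 and 746 counts in WT and 69.6, 112 and 116 in tRNA-Phe-1-1-/- livers (-2.95 ± 0.30, adjusted p = 0.000163). Ehhadh, of the peroxisomal pathway, fell from 15216, 15083 and 16217 counts to 8123, 7329 and 8119 (-0.98 ± 0.10). In triglyceride metabolism 4 of 22 genes rose and 6 fell. The phosphatidate phosphatase and coactivator gene Lpin1 rose from 4448, 1611 and 3975 counts to 11936, 16834 and 24180.1 (2.47 ± 0.37). Against the other 2 knockout lines the log2 fold change of Lpin1 was 3.18 ± 0.32. Without WT B or WT C, 2 triglyceride genes rose and 5 fell, and without tRNA-Phe-1-1-/- A 2 rose and 3 fell.

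Glucose genes changed in both directions, with 5 of 26 higher and 5 lower. Pck1, the rate-limiting enzyme of glucose production, had 29917, 25284 and 25031 counts in WT and 93794, 106521 and 104314 in tRNA-Phe-1-1-/- livers (1.93 ± 0.25, adjusted p = 0.000582). Pfkfb3, which makes the activator of glycolysis, rose from 239, 158 and 138 counts to 1569.6, 994 and 1261 (2.85 ± 0.55). Ppp1r3c, which directs a phosphatase to glycogen and so favours its storage, fell from 7862, 3351 and 4962 counts to 572, 410.0 and 743 (-3.18 ± 0.30, adjusted p = 0.000121). Without WT A, WT B, WT C, tRNA-Phe-1-1-/- A or tRNA-Phe-1-1-/- B 2 or 3 were lower, and without WT B or WT C 3 were higher.

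Among genes for detoxification more were lower than higher, and most did not pass the test. Cytochrome P450 enzymes oxidise drugs and steroids, and conjugating enzymes then make the products soluble. Of 42 genes of P450 families 1 to 3, with their partner Por, 2 were higher and 12 lower, and without WT C 7 were lower. Cyp3a25 had 16932, 24226 and 22922 counts in WT and 5617, 3357 and 6306 in tRNA-Phe-1-1-/- livers (-2.10 ± 0.27, adjusted p = 0.000573). Por, the reductase that hands electrons to all of these enzymes, rose from 3101, 4769.8 and 3963 counts to 10358, 11852 and 12500.4 (1.57 ± 0.26). Of 40 conjugating enzymes 14 were lower and 1 higher, with 8 lower without WT B or tRNA-Phe-1-1-/- A and 9 without WT C. The sulfotransferase gene Sult1c2 fell from 154, 171 and 183 counts to 47.1, 39.7 and 42.0 (-1.96 ± 0.17, adjusted p = 5.87e-05). Papss2, which makes the sulfate donor for these enzymes, fell from 4979.9, 7179 and 7812 counts to 2557, 2228 and 2328 (-1.47 ± 0.18). The exception was Ugt2b38, a glucuronosyltransferase gene, with 341, 271 and 228 counts in WT and 1766, 1221 and 1361 in tRNA-Phe-1-1-/- livers (2.37 ± 0.22, adjusted p = 0.000118). P450, glutathione and glucuronosyltransferase genes have close copies, so the values of single members are uncertain. Against the other 2 knockout lines 15 of the 42 P450 genes and 21 of the 40 conjugating enzymes were lower. In that comparison 1853 of all 15856 genes tested were lower.

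Nrf2, the factor that answers oxidants, shares several of these targets, and 10 of its 26 targets were lower and 1 higher. Gclc, the rate-limiting enzyme of glutathione synthesis, had 13396, 17632 and 14847 counts in WT and 4000.3, 4904 and 3735 in tRNA-Phe-1-1-/- livers (-1.86 ± 0.20, adjusted p = 0.000239). In the synthesis and transport of bile acids 8 of 26 genes were lower and 1 higher, and 5 were lower and none higher without WT C. Hsd3b7, an early step shared by both routes of bile acid synthesis, fell from 23557, 20107 and 20197 counts to 11909.7, 10127 and 11978 (-0.91 ± 0.11). The bile salt export pump Abcb11 fell from 34142, 36732 and 37780.0 counts to 22259, 25794 and 22160.1 (-0.63 ± 0.09, adjusted p = 0.00132). Slco1a4, an uptake carrier for bile acids and drugs, fell most, from 1849, 4584 and 4129 counts to 215, 401 and 351 (-3.39 ± 0.45).

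Of the liver transcription factors, 10 of 32 were higher and 5 lower. Cebpb and Cebpd were among those that rose. These counts ranged from 5 to 6 higher and 3 to 5 lower without WT B, WT C or tRNA-Phe-1-1-/- A. Sex-dependent genes changed in both directions. Of 31 genes that are higher in males through growth hormone, 5 rose and 3 fell, with 2 to 7 higher and 1 or 2 lower when any 1 of the 6 livers was left out. Of 16 tested female-biased genes 2 rose and 6 fell, with 0 higher without WT A, 1 higher and 4 lower without WT B and 4 lower without WT C or tRNA-Phe-1-1-/- A. Elovl3, a male-biased elongase, had 22092, 8586 and 9139.8 counts in WT and 3166, 3505 and 2084 in tRNA-Phe-1-1-/- livers (-2.08 ± 0.33, adjusted p = 0.00198). Abcd2, a female-biased peroxisomal transporter, fell from 794, 2384 and 2454 counts to 125, 212 and 53.2 (-3.88 ± 0.64), and WT A lay nearer to tRNA-Phe-1-1-/- livers than WT B and WT C did.

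Among protein-coding genes with a mean of at least 50 counts, further large changes were found outside the lists. Scara5, a ferritin receptor, had 229, 40.5 and 22.1 counts in WT and 2562, 2275 and 1849 in tRNA-Phe-1-1-/- livers (5.19 ± 0.94, adjusted p = 0.00379), and WT A was the highest of its group. Aqp8, a water channel of the bile canaliculus, fell from 10229, 5199.7 and 6662 counts to 439, 220.4 and 1038 (-3.93 ± 0.50). Erbb4 (ENSMUSG00000062209.15), a receptor for neuregulins, had 356, 413 and 393 counts in WT and 26.3, 24.7 and 53.2 in tRNA-Phe-1-1-/- livers (-3.53 ± 0.32, adjusted p = 0.000102). Its level was 373 ± 127 in tRNA-Phe-2-1-/- and 529 ± 131 in tRNA-Phe-3-1-/- livers (SD, n = 3). Chrna4, a subunit of the nicotinic acetylcholine receptor, fell by 4.52 on the log2 scale against WT, but its difference from the other 2 knockout lines did not pass the test (-1.22 ± 0.61, adjusted p = 0.173).

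The genes with the lowest p-values combined moderate changes with little spread. Mreg (ENSMUSG00000039395.8), a gene of organelle transport, had 1606, 1765 and 1732 counts in WT and 505, 537 and 499 in tRNA-Phe-1-1-/- livers (-1.72 ± 0.10, adjusted p = 1.26e-05). Fbxo31, part of a ubiquitin ligase, rose from 838, 778 and 732 counts to 2376, 2535 and 2528 (1.66 ± 0.10, adjusted p = 1.49e-05). Gfra1, a receptor for glial cell line-derived neurotrophic factor, rose from 4285, 4173 and 4282 counts to 13983, 15619.8 and 12911 (1.73 ± 0.11). Coq8a, needed for synthesis of coenzyme Q, fell from 21476, 19751 and 21787 counts to 2454, 3210.2 and 4555 (-2.67 ± 0.18). The ubiquitin ligase gene Rnf125 fell from 10458, 8834 and 10254 counts to 1068, 839 and 1448 (-3.17 ± 0.23). The endosomal gene Snx10 (1.84) and the lncRNA Gm42031 (3.26) rose, and the GTPase regulator Arhgap24 (-1.70) fell. All 10 genes of this set also passed the test against the other 2 knockout lines, with values of -1.56 ± 0.08 for Mreg, 1.40 ± 0.09 for Fbxo31, -2.26 ± 0.16 for Coq8a and -2.79 ± 0.20 for Rnf125.

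Markers of cell types were summed in each liver to check the tissue. Hepatocyte markers were abundant in all 6 livers, and 8 of 10 did not pass the test, while Hnf4a was higher (0.50) and Serpinc1 lower (-0.34). The call for Hnf4a was lost without WT B, WT C or tRNA-Phe-1-1-/- B and that for Serpinc1 without WT B, WT C or tRNA-Phe-1-1-/- A, with adjusted p-values of up to 0.0651 and 0.110. Macrophage markers summed to 13825 to 15335 counts in WT and 14628 to 20705 in tRNA-Phe-1-1-/- livers, and of 14 tested only Cd163, a haemoglobin receptor, was higher (1.67 ± 0.27). The sums for B cells and erythroid cells were lower without overlap. B cell and plasma cell markers summed to 633 to 771 counts in WT and 247 to 338 in tRNA-Phe-1-1-/- livers, with 5 of 9 lower. Among these were Ms4a1, from 22.5, 41.5 and 44.1 counts to 5.65, 3.53 and 6.14, and Ighm, from 427, 241 and 339 to 88.5, 73.2 and 143. Not all markers of this list fell. Jchain had 24.4, 17.8 and 19.5 counts in WT and 19.8, 74.9 and 47.1 in tRNA-Phe-1-1-/- livers (0.99, limma, adjusted p = 0.194). Igkc was at 0.10 (adjusted p = 0.917). Erythroid markers summed to 19777 to 26055 counts in WT and 11575 to 13851 in tRNA-Phe-1-1-/- livers, with 5 of 6 lower. Of 12 neutrophil markers only 3 were abundant enough to be tested, S100a8, S100a9 and Csf3r, and all were higher. S100a9 had 5.86, 23.7 and 20.8 counts in WT and 95.04, 143 and 54.2 in tRNA-Phe-1-1-/- livers, whereas Ly6g was at 0 in all WT livers and at 0 to 2.65 in tRNA-Phe-1-1-/- livers. All 3 lost their calls when single livers were left out (WT A or tRNA-Phe-1-1-/- B for all 3, tRNA-Phe-1-1-/- A for S100a8 and S100a9, WT C for S100a8 and Csf3r, and tRNA-Phe-1-1-/- C for Csf3r), with adjusted p-values of up to 0.0958 for S100a8, 0.0637 for S100a9 and 0.115 for Csf3r. Markers of T and NK cells, stellate cells and endothelial cells overlapped in their sums.

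**Figure D5:**
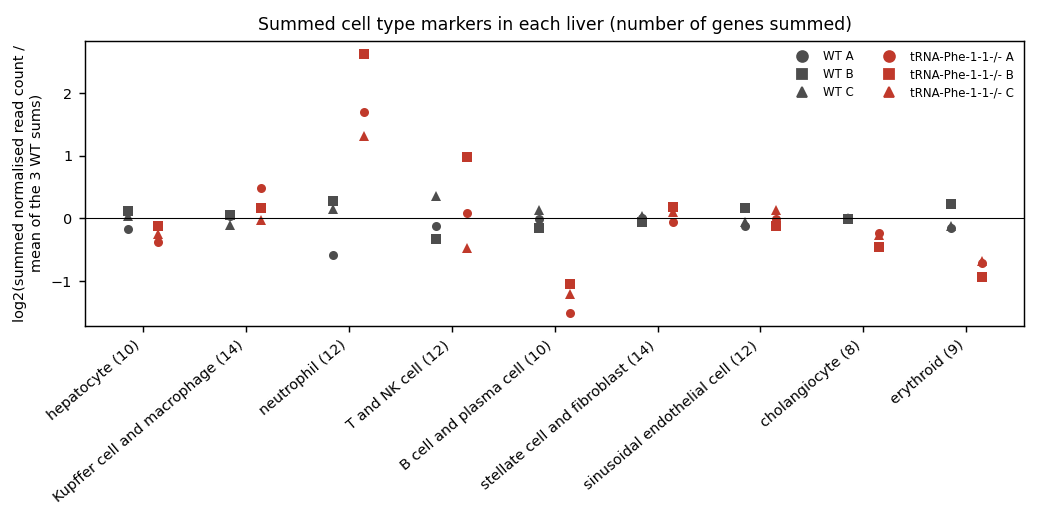
Log2 of the summed normalised read counts of cell type markers in each liver, divided by the mean of the 3 WT sums (y axis, 0 marks the WT mean), with the number of genes summed in brackets; shapes mark replicates A, B and C. Neutrophil sums lie above and B cell and erythroid sums below those of WT in all 3 tRNA-Phe-1-1-/- livers, and tRNA-Phe-1-1-/- B has the highest neutrophil sum.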

How the data were processed

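Total RNA was extracted from pieces of frozen liver, and libraries were made with the TruSeq kit and sequenced on a NovaSeq instrument. Per the study's methods and the submitters' processing notes, the authors trimmed reads with Trim Galore and cutadapt, aligned them with STAR to GRCm38.p6, after masking mitochondrial insertions in the nuclear genome, and estimated transcripts with Salmon, which divides reads between similar transcripts. Gene estimates were summed and divided by DESeq2 size factors for each tissue. The deposited liver table holds these normalised counts, a signal that depends on the assumption that most genes do not change. Further deposited tables hold the comparisons made by the authors (mean, log2 fold change and s-value) and were not used. The number of columns that could not be assigned to a sample was 0.

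The values of a column were spaced by a fixed step, and dividing by it gave a whole number of reads in 100% of cases (tolerance 0.01). These recovered reads describe depth and served for count tests as alternatives (edgeR called 2703 genes). Replicates of a group differed far more than sampling noise allows (chi-square of 35.14 to 179 per gene), so none was counted as a duplicate.

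Log2(normalised count + 1) was fitted with limma 3.58.1 in R 4.3.3 for the 12 livers of the 4 genotypes together, with a prior variance that depends on expression, for the 15856 of 55469 genes with a mean of at least 10. Tests were two-sided, with Benjamini-Hochberg adjustment over all genes tested and an adjusted p of 0.05 as the threshold. Fold changes are differences of log2(normalised count + 1), so those of genes with few reads are understated, and errors are standard errors (SE) of the fit. The smallest p that an exact permutation test can reach with 3 against 3 livers is 0.1. The code was tested on simulated data. A few members of the lists are not reported here by name. The size of the other-lines comparison is the mean of tRNA-Phe-1-1-/- minus the mean of the 2 other lines, so WT does not enter it.

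Gene lists and marker lists were chosen with earlier results of these data known, so they are described by counts and medians without a set test. Named genes are, for each list, up to 6 tested members in order of p and every member of lists of up to 12 genes, the 10 largest rises and falls among called protein-coding genes with a mean of at least 50 counts and no overlap, the 10 lowest p-values, the cell type markers and the genes nearest to the deleted tRNA gene. Promoter windows of 300 bases and gene positions came from RefSeq tables of GRCm38.p6, and the genome used for guide matches and coding sequences was GRCm39 with GENCODE annotation. Gene types were matched by identifier for 51679 of 55434 Ensembl identifiers (93.2%). Alternatives were pseudocounts of 0.1 and 5, testing every gene or those averaging 50 counts, quantile and TMM scaling (edgeR 4.0.16), no variance trend, a robust prior, the replicate block, only the samples of each comparison, edgeR and DESeq2 1.42.0 on recovered reads, and leaving out each liver.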

Additional observations from a re-analysis of the deposited data

Results flagged for a closer look

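The change against WT differed between the tRNA-Phe-1-1-/- livers and the mean of the other 2 knockout lines for 3490 of 15856 genes (limma, adjusted p under 0.05 for the difference itself, in which WT cancels), with 1637 higher and 1853 lower in tRNA-Phe-1-1-/- livers. This was the difference between groups that called for a closer look. Erbb4 was an example of a gene that set the line apart (log2 fold change -3.68 ± 0.28, adjusted p = 2.12e-05), as were Fkbp5 (2.69 ± 0.18, adjusted p = 1.8e-05) and Hspb1 (2.44 ± 0.18, adjusted p = 1.8e-05). The count was 2185 without tRNA-Phe-1-1-/- replicate A. Groups of 3 livers were too small to be searched for outlying samples.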

How the results depend on the processing

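Against WT, 2331 to 3475 genes were called under the other scalings, pseudocounts, filters, variance settings and count tests, beside 2751 with the reported settings, and the share of calls that were higher stayed within 46.0% to 49.2% (47.7% as reported). With only the 6 livers of the comparison in the fit, 1808 genes were called, which has fewer livers to estimate the spread. Leaving out single livers gave 1472 to 2559 genes against WT and 2185 to 3445 against the other 2 knockout lines, with the lowest values without WT C (1472) and without tRNA-Phe-1-1-/- replicate A (2185). Of the named genes that passed the test, none changed direction. Among genes that did not pass it, Nr1d1 changed sign with edgeR (-0.13) and DESeq2 (-0.14). Leaving out single livers also turned the sign of 4 genes that did not pass it, with log2 fold changes of -0.21 to 0.68 for Nr1d1, -0.13 to 0.59 for Hlf, -0.12 to 0.012 for Farsb and -0.15 to 0.066 for Fars2. The cause was not tested. Samples with the same replicate letter were not shown to be paired. The correlations of their deviations from the group means were 0.2277 (A), 0.2363 (B) and -0.09056 (C), and WT C deviated most like tRNA-Phe-1-1-/- B (0.1564), so not every liver correlated best with its own letter. With the letter as a replicate block, 2347 genes were called against WT and 3112 against the other lines. Depth limited genes under a mean of 10 counts, such as most neutrophil markers, which were not tested.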

Other observations

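Of genes of the p53 response, which follows damage to DNA, 5 of 17 were higher and 1 lower (median log2 fold change 0.44). Aen, a nuclease induced by p53, had 476, 439 and 423 counts in WT and 843, 894 and 614 in tRNA-Phe-1-1-/- livers (0.80 ± 0.16, limma, adjusted p = 0.00582). Ccng1, a cyclin induced by p53, rose from 1119.7, 1184 and 1113 counts to 1755, 1665 and 1398 (0.49 ± 0.11, adjusted p = 0.00936), but its difference from the other 2 knockout lines did not pass the test (0.12 ± 0.09, adjusted p = 0.368). Without WT B, WT C or tRNA-Phe-1-1-/- B 3 members were higher. Ccne1, the cyclin of entry into S phase, rose from 8.79, 21.7 and 14.3 counts to 126, 75.8 and 59.4 (2.48 ± 0.36, adjusted p = 0.00112). Of 32 cell cycle genes 3 were higher and none was lower, with 1 higher without WT C or tRNA-Phe-1-1-/- A. That share of 9.38% was near the 8.27% of all genes tested that were higher, and the list median was 0.024. Against the other 2 knockout lines the list median was -0.42.

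By gene type, 1238 of 13128 protein-coding genes were higher and 1201 lower, whereas of 993 lncRNA genes 31 were higher and 116 lower. Of the 13 mitochondrial entries tested, the ribosomal RNA mt-Rnr1 was lower, with 67710, 110674 and 130130 counts in WT and 45371, 58618 and 44817 in tRNA-Phe-1-1-/- livers (-1.01, adjusted p = 0.00617), and WT A was the WT liver nearest to the knockout. The subunit gene mt-Nd3 was higher (0.48, adjusted p = 0.0281), and mt-Rnr2 was lower (-0.65, adjusted p = 0.0389). Against the other 2 knockout lines, mt-Rnr1, mt-Nd3 and mt-Rnr2 did not pass the test (limma, adjusted p = 0.605, 0.587 and 0.255). The mean of mt-Rnr1 was 51694 counts in tRNA-Phe-2-1-/- and 56934 in tRNA-Phe-3-1-/- livers, beside 49602 in tRNA-Phe-1-1-/- and 102838 in WT livers.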
